A study of Mus musculus with 11 samples.

Results

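Lysosomal transcripts were examined in conventional type 1 dendritic cells (cDC1s) sorted from B16 melanoma, the tumor of a mouse melanoma cell line, as a list of 53 genes for hydrolases, membrane proteins, sorting receptors and regulators of the lysosome. The list was drawn up by gene function, with earlier results of these data known. Of the 53 genes, 52 are among the 11118 genes of the normalized table, and all 52 passed the filter on low counts that left 10951 genes for testing. The remaining gene, Ctsf, was measured only in the count table, at 0 to 0.549 CPM (read counts scaled to a common library size) in the 11 pools.

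Bulk RNA-seq was done on 11 pools, each of cDC1s from 2 to 4 tumor-bearing mice aged 6 to 14 weeks, with tumors collected after 10 to 15 days. All animals carried the floxed Xbp1 allele. The 4 control pools had no Cre, of which replicates 1 to 3 were XBP1 fl/fl and replicate 4 was XBP1 fl/fl, IRE1 fl/fl. The 4 XBP1ΔDC pools were XBP1 fl/fl, CD11c-CRE, and the 3 XBP1ΔDC IRE1truncDC pools had the same Cre with both floxed genes, XBP1 fl/fl and IRE1 fl/fl. Recombination removes exon 2 of Xbp1, and exons 20 to 21 of Ern1, the gene of IRE1, whose truncated product lacks RNase function. The CD11c promoter drives Cre in other CD11c-expressing cells too, not in cDC1s alone. The study used the comparison to separate the loss of the transcription factor XBP1s from the loss of the whole IRE1 RNase arm.

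Lysosomes are acidic organelles in which hydrolases take apart proteins, glycans and lipids. Most of these enzymes are made in the endoplasmic reticulum, tagged with mannose 6-phosphate in the Golgi and carried to the lysosome by mannose 6-phosphate receptors, and the transcription factors TFEB and TFE3 act on a shared promoter element of many of their genes. In dendritic cells the same compartment cuts antigens and the invariant chain for presentation, and cDC1s are known for keeping phagosomal proteolysis mild. IRE1, a sensor of the endoplasmic reticulum, splices Xbp1 mRNA and, in regulated IRE1-dependent decay (RIDD), can cut other mRNAs at stem-loops that resemble the splice sites of Xbp1.

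The pools held 21089065 to 26843486 counts each, of which the 52 lysosomal genes took 1.42 to 1.65%. Xbp1 was at 244 to 271 CPM in control, 130 to 165 in XBP1ΔDC and 179 to 236 in XBP1ΔDC IRE1truncDC pools, with log2 differences from control of -0.74 (edgeR adjusted p = 0.00167 by Benjamini-Hochberg) and -0.28 (edgeR adjusted p = 0.324). Ern1 was at 9.82 to 18.99, 9.74 to 15.6 and 17.0 to 26.0 CPM, and since counts cover whole genes they check the deleted exons only in part. The summed level of 10 cDC1 markers was 8309 to 10029 CPM in the 11 pools. Of the 7 T and NK cell, 4 B cell and 5 neutrophil markers, 6, 4 and 4 are in the count table. These summed to at most 7.47, 1.99 and 1.56 CPM. The 11 macrophage markers summed to 697 to 1019 CPM in control, 652 to 949 in XBP1ΔDC and 451 to 1202 in XBP1ΔDC IRE1truncDC pools, and the 6 markers of mature migratory DCs to 1943 to 3916, 2502 to 5284 and 3570 to 6983 CPM. The 7 melanoma markers summed to 54.1 and 59.7 CPM in control replicates 3 and 4 and to 27.9 and 64.3 in XBP1ΔDC replicates 3 and 4, against 6.30 to 12.1 in the other 7 pools.

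The promoters of several lysosomal genes carried the E-box that TFEB and TFE3 are known to bind. RefSeq windows (GRCm38.p6, 250 bases before to 50 after the gene start) were matched for 44 of the 52 genes, which have 55 windows, and were searched on both strands. The palindrome TCACGTGA was found in 10 of the 55 windows (18.2%), those of 9 genes, against 1.9% of the 10931 windows of measured genes and 0.974% of all 32851 windows. Its core CACGTG, which overlaps it, was in 30.9% of the windows against 10% of those of measured genes. TGACGTGG, a letter string used for the XBP1s and ATF6 element, was in 0 of the 55 windows and in 0.878% of those of measured genes. These are matches of letters and not bound sites. The windows below are shown because they belong to the aminopeptidase gene and the sorting receptor gene with large differences in later paragraphs (Dpp7, Igf2r), and to an aspartic protease, a thiol reductase, a calcium channel and a membrane protein with the same element (Ctsd, Ifi30, Mcoln1, Cln3); capitals mark the match, and a negative position gives the bases before the gene start at which it begins. The first match is shown where a window holds several.
Dpp7, chr2:25356383-25356422, minus strand, match at position -74: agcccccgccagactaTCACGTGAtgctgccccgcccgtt
Igf2r, chr17:12769732-12769771, minus strand, match at position -49: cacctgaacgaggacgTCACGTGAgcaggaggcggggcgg
Ctsd, chr7:142387903-142387942, minus strand, match at position -99: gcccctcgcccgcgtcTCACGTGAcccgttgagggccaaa
Ifi30, chr8:70766837-70766876, minus strand, match at position -197: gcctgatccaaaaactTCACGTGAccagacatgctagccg
Mcoln1, chr8:3500457-3500496, plus strand, match at position -46: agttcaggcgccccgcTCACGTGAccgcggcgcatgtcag
Cln3, chr7:126583335-126583374, minus strand, match at position -122: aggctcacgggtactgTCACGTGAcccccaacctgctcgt

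The other 3 genes with TCACGTGA were Ctsa, Gla and Gnptg. The 9 genes with the element had a median log2 difference of -0.0017 in XBP1ΔDC and -0.12 in XBP1ΔDC IRE1truncDC relative to control, beside -0.066 and -0.089 in the 35 matched genes without it.

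In control cDC1s the lysosomal transcripts spanned a wide range of levels. Per kilobase of exon, 42 of the 52 genes lay above the median of the tested genes and 18 above the 90th percentile. Ppt1, a palmitoyl-protein thioesterase that removes fatty acids from proteins, was the highest at 849 ± 31.8 CPM per kilobase (SD, n = 4), followed by the membrane protein Laptm5 at 773 ± 35.7 (SD, n = 4). Among proteases, Ctss, the cysteine protease that trims the invariant chain, was the highest at 621 ± 53.7 CPM per kilobase (SD, n = 4), with Ctsz at 428 ± 22.5 and the thiol reductase Ifi30, which opens disulfide bonds of antigens, at 415 ± 35.2. Ctsl, another cysteine protease, was the lowest protease at 1.52 ± 0.40 CPM per kilobase (SD, n = 4). The other roles spanned narrower ranges, except lipid breakdown and export, which ran from Ppt1 down to Galc. Gusb (β-glucuronidase) led the enzymes of glycosaminoglycan breakdown at 115 ± 8.30 and Sgsh (a heparan sulfate sulfatase) was the lowest of them at 4.49 ± 0.92. Among enzymes of glycogen and glycoprotein breakdown, the α-mannosidase Man2b1 was at 159.8 ± 10.2 and the β-mannosidase Manba at 6.27 ± 0.70, and among genes of lipid breakdown and export Galc, a galactosylceramidase, was the lowest at 0.782 ± 0.182 (all CPM per kilobase, SD, n = 4).

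**Figure D1:**
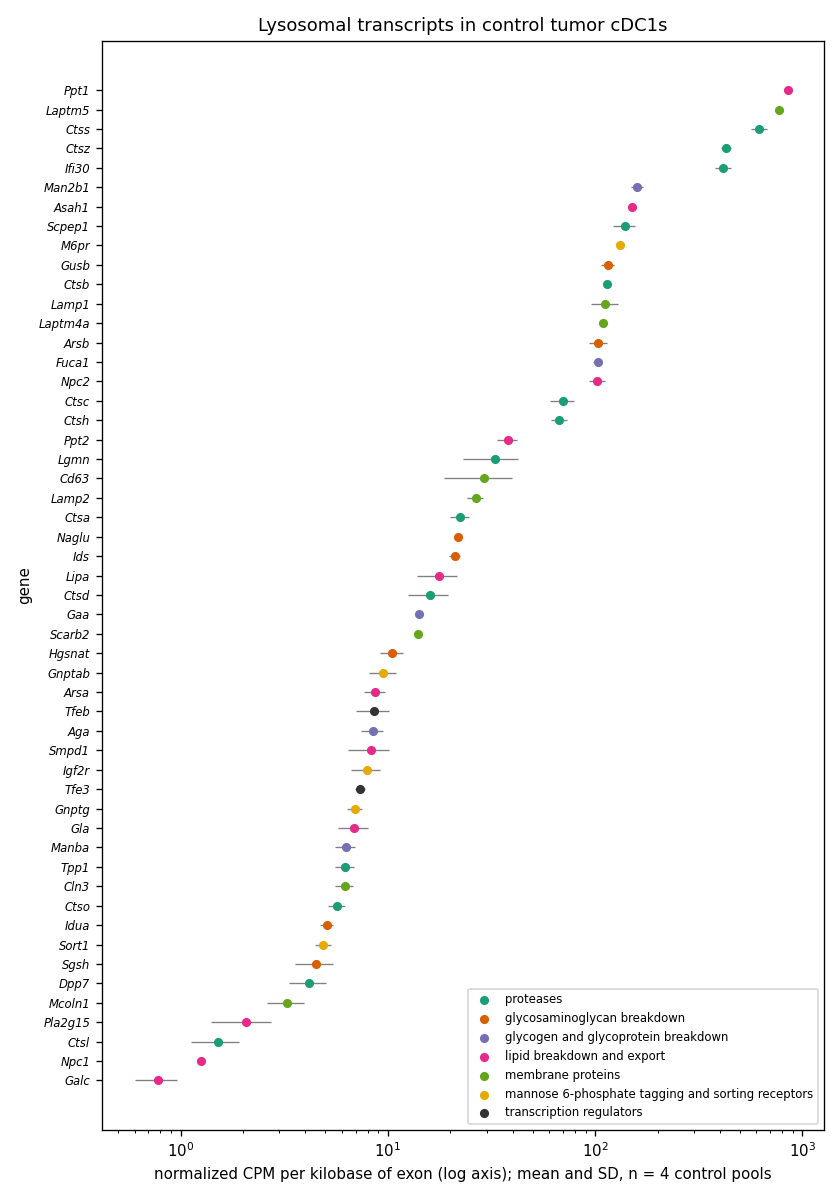
Level of the 52 lysosomal transcripts in control tumor cDC1s, as normalized CPM per kilobase of exon on a log axis (points, mean of 4 pools; bars, SD), colored by role. Ppt1, Laptm5, Ctss, Ctsz and Ifi30 stand above 400, and Galc is the lowest at 0.782.

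Membrane proteins ran from Laptm5 down to the calcium channel Mcoln1 at 3.28 ± 0.65 CPM per kilobase (SD, n = 4). The small mannose 6-phosphate receptor M6pr was at 132 ± 3.94 CPM per kilobase, far above the large receptor Igf2r at 7.89 ± 1.28 and the sorting receptor Sort1 at 4.89 ± 0.445 (SD, n = 4). The regulators Tfeb (8.62 ± 1.57) and Tfe3 (7.38 ± 0.422) differed by less than the SD of Tfeb. Within groups, the lysosomal transcripts had a median pooled SD of 0.17 log2 CPM, beside 0.22 for all tested genes. M6pr varied least (0.0393), next to the acid ceramidase Asah1 (0.0545), and Ctsd (0.59) and Cd63 (0.56) varied most.

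Of the 52 lysosomal transcripts, 1 passed the edgeR test as lower in XBP1ΔDC cDC1s than in control, and 0 passed in XBP1ΔDC IRE1truncDC cDC1s. Hgsnat, the gene of the acetyltransferase of heparan sulfate breakdown, was that transcript, and its call was lost in 11 of 25 alternative settings. With edgeR's quasi-likelihood test and Benjamini-Hochberg adjustment over all 10951 genes, 1 of 52 (1.92%) passed at an adjusted p under 0.05, against 0.895% of all tested genes (0.858% lower and 0.0365% higher), and it also passed the fold limit of 1.5, as did 0.493% of all genes. By limma voom the same gene passed, against 0.941% of all genes, and by DESeq2 3 (5.77%) did, Hgsnat, Dpp7 and Igf2r, against 1.65%. The median log2 difference of the 52 was -0.058, beside 0.0050 for all tested genes. There were 31 lower (59.6%, against 48.8% of all genes) and 21 higher. At an unadjusted p under 0.05 there were 12 lysosomal genes (23.1%), all lower, against 7.62% of all genes, of which 4.95% were lower and 2.67% higher. In 9 genes (17.3%) every XBP1ΔDC pool was below every control pool, and in 0 genes above, against 3.67% and 1.63% of all tested genes. As stated above, the lysosomal genes had higher levels and a smaller spread than the table as a whole, and the part of this in the shares was not tested. The genes were also chosen with earlier results of these data known, which limits a reading of the shares. A lower level in a bulk pool cannot tell fewer cells of a type from less RNA per cell.

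In the double-deficient cDC1s the lysosomal genes leaned to lower levels without a call. In XBP1ΔDC IRE1truncDC against control, 0 of 52 lysosomal genes passed by edgeR, DESeq2 or limma voom, against 0.356% of all genes by edgeR (0.292% lower, 0.0639% higher, and 0.21% with the fold limit), 1.82% by DESeq2 and 0.347% by limma voom. By edgeR, 8 had an unadjusted p under 0.05 (15.4%), against 11.2% of all genes. Of these, 7 (13.5%) were lower, against 5.44% of all genes, and Cd63 was higher (1.92%), against 5.73%. The median log2 difference was -0.10, beside -0.0031 for all genes, with 34 lower (65.4%, against 50.6% of all genes) and 18 higher. In 9 genes (17.3%) every pool was below control, against 5.81% of all genes, and in 0 above, against 4.31%. Both comparisons share the 4 control pools. In the direct comparison of XBP1ΔDC IRE1truncDC with XBP1ΔDC, 0 of 52 passed by edgeR and by limma voom and 1 (1.92%), Dpp7, by DESeq2, against 0.0731% of all genes by edgeR and by limma voom and 0.539% by DESeq2. At an unadjusted p under 0.05, Dpp7, Hgsnat and Gaa were higher (5.77%, against 2.79% of all genes) and Pla2g15 lower (1.92%, against 2.5%) in the double-deficient pools, in all 7.69% against 5.29%, and the median was 0.017. Here 4 genes (7.69%) had every double-deficient pool above every XBP1ΔDC pool, Dpp7, Gaa, Hgsnat and Tpp1, and 2 (3.85%) below, M6pr and Npc1, against 3.11% and 2.96% of all genes. Those 4 were also among the 12 genes lower in XBP1ΔDC at an unadjusted p under 0.05. The direct comparison reuses the pools of both Cre-bearing groups, so it is not independent of the comparisons with control.

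**Figure D2:**
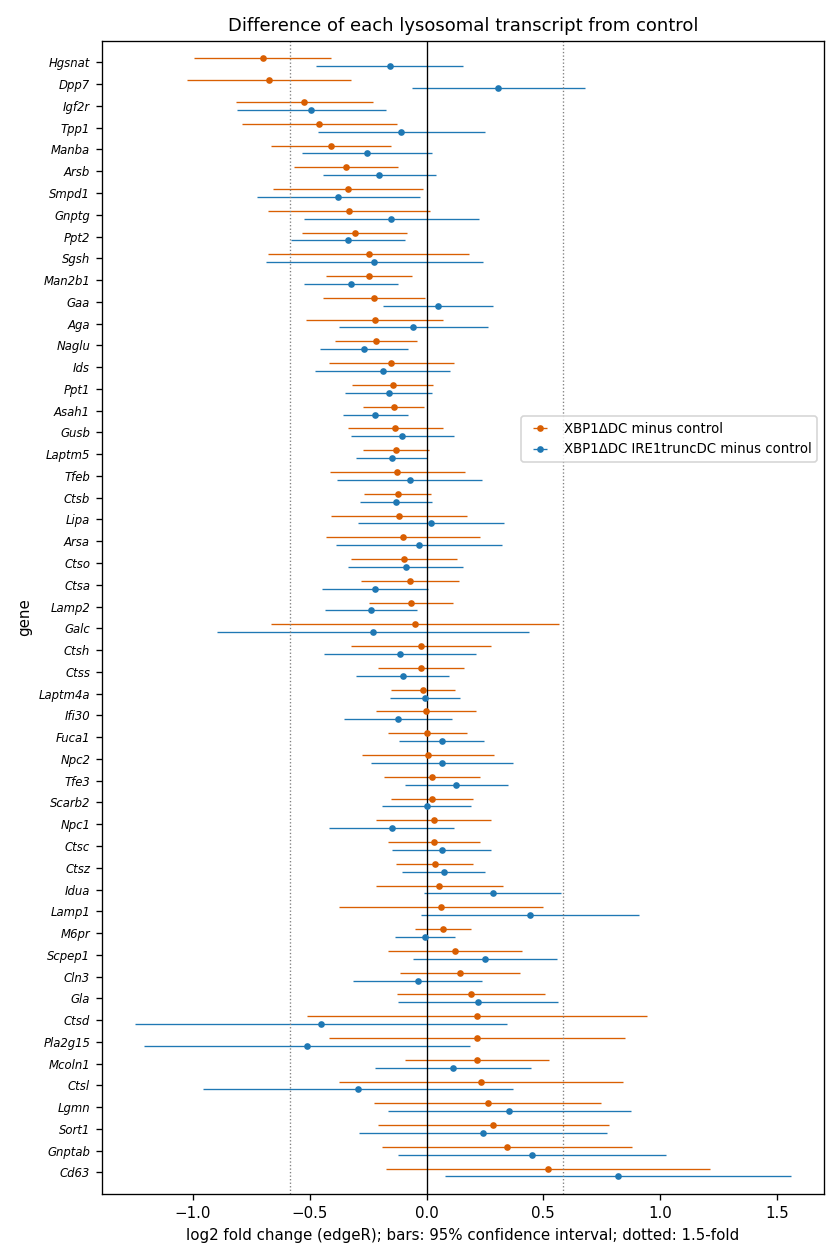
Log2 fold change of each of the 52 lysosomal transcripts against control (edgeR, points; bars, 95% confidence interval), for XBP1ΔDC in orange and XBP1ΔDC IRE1truncDC in blue, with dotted lines at a fold of 1.5. Hgsnat is the lowest in XBP1ΔDC at -0.70, and the intervals of 36 and 39 of the 52 genes lie between the dotted lines.

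Precision differed among the genes. The median SE was 0.125 on the log2 scale in XBP1ΔDC and 0.13 in XBP1ΔDC IRE1truncDC, and the 95% intervals of 36 and 39 of the 52 genes stayed inside a 1.5-fold change in either direction. The intervals of the other genes reached beyond that size in at least 1 direction, among them those of Ctsd, Ctsl, Lgmn, Cd63 and Gnptab.

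**Figure D3:**
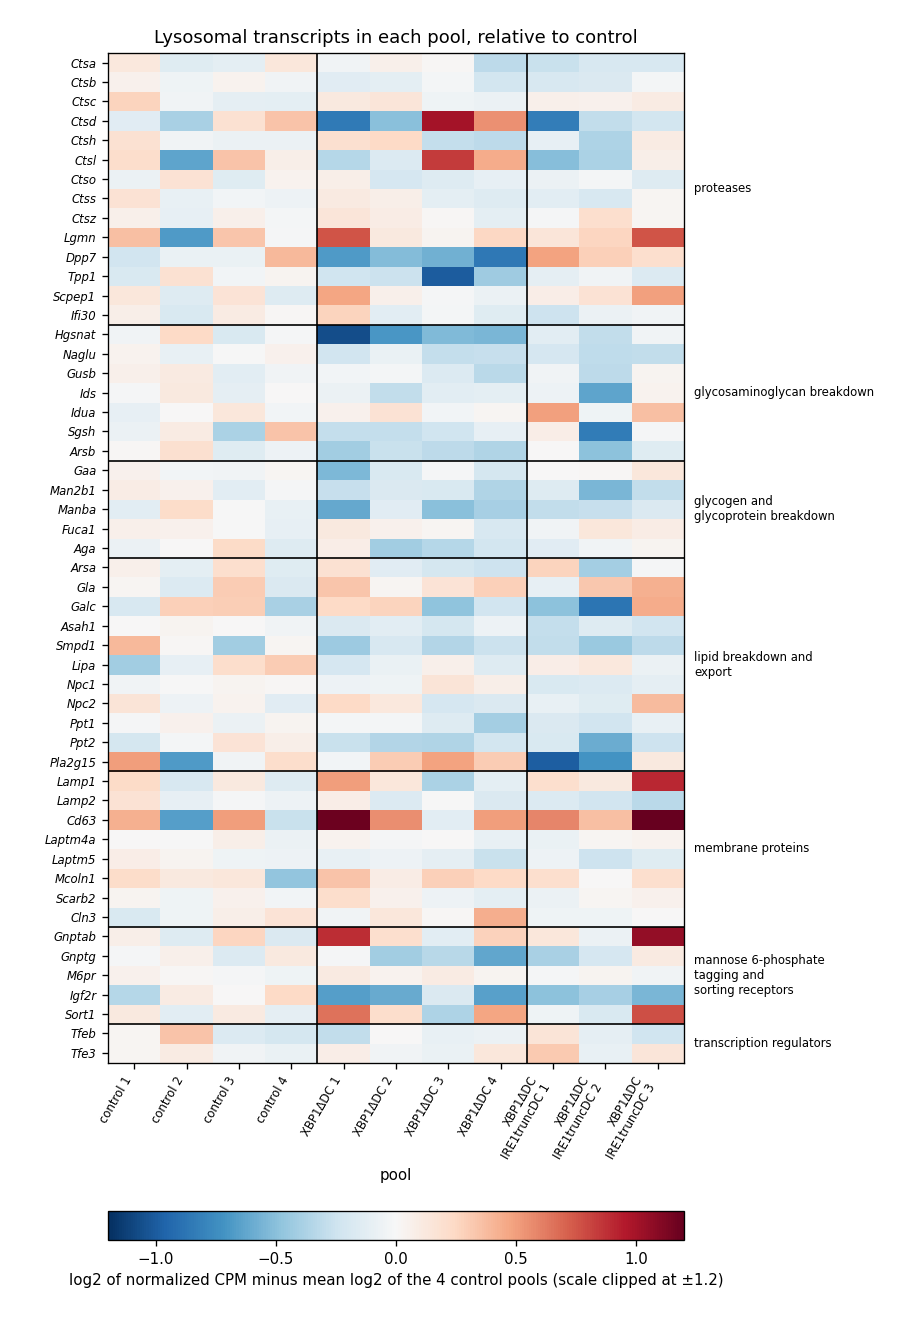
Each of the 52 lysosomal transcripts in each of the 11 pools, as log2 of normalized CPM minus the mean log2 of the 4 control pools, by role (rows) and group (columns); blue is below and red above control, with the scale clipped at ±1.2. Hgsnat and Dpp7 are blue in all 4 XBP1ΔDC pools, and Cd63, Gnptab and Sort1 are reddest in XBP1ΔDC replicate 1 and XBP1ΔDC IRE1truncDC replicate 3.

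Among the 14 proteases, 0 passed the edgeR test in any comparison. In XBP1ΔDC 2, Dpp7 and Tpp1, had an unadjusted p under 0.05 by edgeR, against 7.62% of all tested genes. Dpp7, an aminopeptidase that takes dipeptides from the ends of peptides, was at 11.7, 13.0, 13.0 and 18.03 CPM in control, at 8.56, 9.60, 9.19 and 7.57 CPM in XBP1ΔDC, and at 19.2, 16.7 and 15.8 CPM in XBP1ΔDC IRE1truncDC pools. The XBP1ΔDC pools were below all others, and the double-deficient pools overlapped control only through control replicate 4. That pool, at 18.03 CPM, is the only control pool with the floxed IRE1 allele, which all double-deficient pools carry. The part of the floxed allele itself in the Dpp7 level was not tested. The log2 difference of XBP1ΔDC from control was -0.67 (SE 0.16, edgeR adjusted p = 0.0971 by Benjamini-Hochberg), and that of XBP1ΔDC IRE1truncDC from XBP1ΔDC was 0.98 (SE 0.17, edgeR adjusted p = 0.0722). Neither passed, while DESeq2 gave adjusted p-values of 0.0144 and 2.80e-04, and without control replicate 4 the second was 0.042 by edgeR, while the first difference was then -0.53 (edgeR adjusted p = 0.293). Tpp1, a tripeptidyl peptidase, was at 28.1, 36.3, 31.1 and 32.7 CPM in control, at 26.9, 26.7, 15.9 and 23.8 CPM in XBP1ΔDC, and at 29.7, 31.1 and 28.5 CPM in XBP1ΔDC IRE1truncDC pools. Its XBP1ΔDC pools were all below control and the double-deficient pools lay among the controls, with a log2 difference of -0.46 in XBP1ΔDC (SE 0.15, edgeR adjusted p = 0.382) and 0.35 in the direct comparison (SE 0.17, edgeR adjusted p = 0.938).

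Ctss, Ctsb and Ifi30 differed little from control in both genotypes. Ctss differed by -0.02 (95% interval -0.21 to 0.16) in XBP1ΔDC and by -0.10 (-0.30 to 0.10) in XBP1ΔDC IRE1truncDC on the log2 scale, Ctsb, a cysteine protease, by -0.12 and -0.13, and Ifi30 by -0.0017 and -0.12. Ctsd, an aspartic protease, was the most uneven gene of the list, at 33.7, 28.3, 41.9 and 46.8 CPM in control, 20.5, 26.2, 73.9 and 54.1 in XBP1ΔDC, and 20.8, 30.0 and 31.7 in XBP1ΔDC IRE1truncDC pools. Ctsl was at 17.1 and 13.0 CPM in XBP1ΔDC replicates 3 and 4 and at 6.18 to 12.1 CPM in the other 9 pools. The log2 differences from control were 0.22 and -0.45 for Ctsd and 0.23 and -0.29 for Ctsl, with 95% intervals that reached beyond a 1.5-fold change in both groups. For both genes XBP1ΔDC replicates 3 and 4, with melanoma markers at 27.9 and 64.3 CPM, were the highest of their group, and in control the highest Ctsd was in replicates 3 and 4, with 54.1 and 59.7 CPM of those markers. Control Ctsl did not follow that order, at 11.1 CPM in replicate 1 and 10.04 CPM in replicate 4, and in XBP1ΔDC IRE1truncDC both genes were highest in replicate 3, the pool with the lowest melanoma sum, 6.30 CPM. All 7 melanoma markers are in the count table and 4 of them were at 0 in some pools; their part in the cathepsin levels was not tested. Exons of Ctsd overlap those of Gm49369 on the same strand, and exons of Ctsl overlap a processed pseudogene, so counts of both are uncertain.

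**Figure D4:**
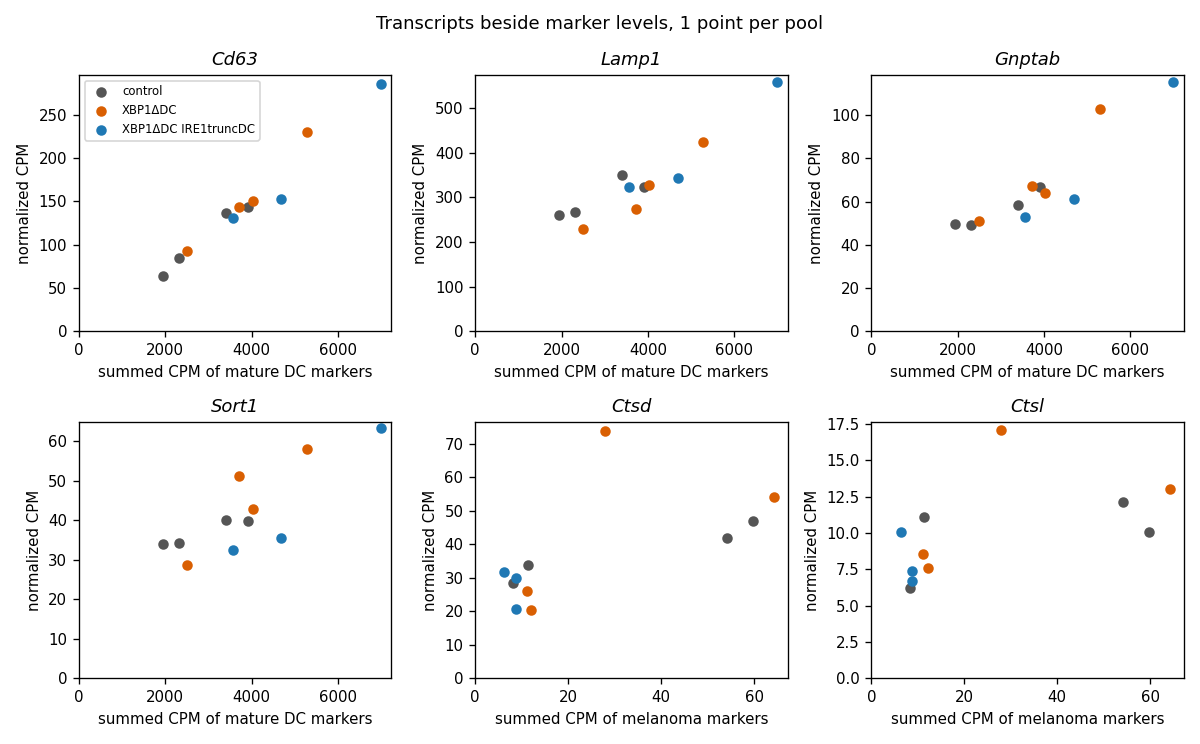
Normalized CPM of 6 lysosomal transcripts (vertical axes) against the summed CPM of mature DC markers for Cd63, Lamp1, Gnptab and Sort1, or of melanoma markers for Ctsd and Ctsl (horizontal axes), 1 point per pool, colored by group. The pool with 6983 CPM of mature DC markers has the highest level of all 4 of the first genes, and the pools at 27.9 and 64.3 CPM of melanoma markers have the highest Ctsd and Ctsl.

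Glycosaminoglycan breakdown held the gene that passed. Hgsnat (ENSMUSG00000037260, GRCm38 chr8:25944453-25976753, minus strand) encodes the membrane enzyme that acetylates heparan sulfate at the lysosome. It was at 33.5, 40.9, 30.4 and 34.1 CPM in control, at 16.6, 21.4, 23.9 and 23.6 CPM in XBP1ΔDC, and at 31.7, 28.2 and 33.5 CPM in XBP1ΔDC IRE1truncDC pools. All XBP1ΔDC pools were below all others, and the double-deficient pools overlapped control. Hgsnat fell in XBP1ΔDC, with a log2 difference of -0.70 (SE 0.14, edgeR adjusted p = 0.0296 by Benjamini-Hochberg), a level 0.615 times that of control. The difference of XBP1ΔDC IRE1truncDC from control was -0.16 (SE 0.15, edgeR adjusted p = 0.769) and that from XBP1ΔDC 0.54 (95% interval 0.23 to 0.86, edgeR adjusted p = 0.429). Leaving out single pools ended the call. Without control replicates 1, 2 or 4 the edgeR adjusted p was 0.0708, 0.109 and 0.0739, without XBP1ΔDC replicates 1, 2 or 4 it was 0.0688, 0.0858 and 0.0527, and without any other pool it stayed under 0.05. With the mature DC markers as a covariate, a setting chosen after seeing the data, the difference was -0.60 (edgeR adjusted p = 0.0916), with macrophage markers -0.77 (edgeR adjusted p = 0.0368), and with melanoma markers -0.70 (edgeR adjusted p = 0.0422).

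Of the other 6 enzymes of this role, Naglu and Arsb had an unadjusted p under 0.05 by edgeR in XBP1ΔDC, against 7.62% of all tested genes. Arsb, which removes sulfate from dermatan sulfate, was at 631, 715, 564 and 596 CPM in control, at 466, 519, 503 and 485 CPM in XBP1ΔDC, and at 626, 445 and 564 CPM in XBP1ΔDC IRE1truncDC pools. The XBP1ΔDC pools were all below control (log2 difference -0.34, SE 0.10, edgeR adjusted p = 0.254), while the double-deficient pools spread over both ranges; exons of Arsb overlap opposite-strand non-coding RNAs, which the unstranded kit cannot separate. Naglu, the α-N-acetylglucosaminidase of heparan sulfate, was at 54.5 to 60.03 CPM in control, 47.6 to 55.0 in XBP1ΔDC and 46.9 to 50.4 in XBP1ΔDC IRE1truncDC pools. Its log2 differences were -0.22 (SE 0.080, edgeR adjusted p = 0.473) and -0.27 (SE 0.087, edgeR adjusted p = 0.270), and the double-deficient pools all lay below control, while the XBP1ΔDC pools overlapped it. Gusb, Ids, Sgsh and Idua had unadjusted p-values of 0.0565 and above in both comparisons with control.

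**Figure D5:**
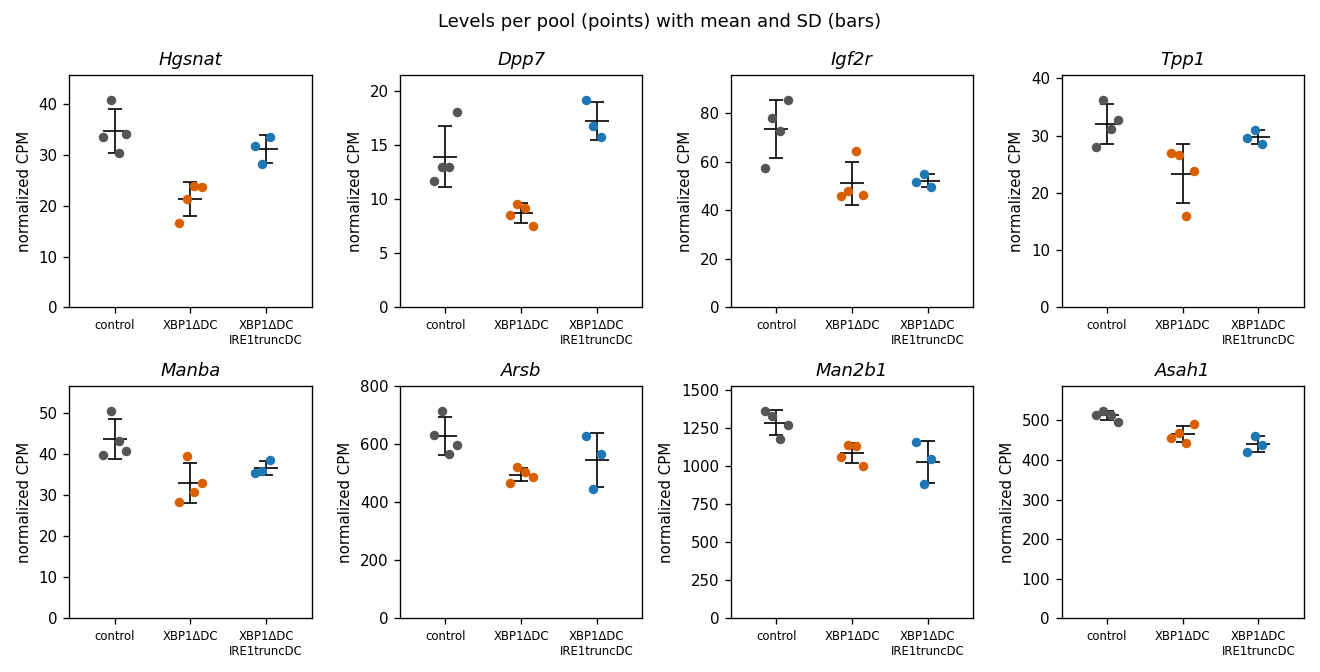
Normalized CPM per pool (points) with mean and SD (bars) in control (n = 4), XBP1ΔDC (n = 4) and XBP1ΔDC IRE1truncDC (n = 3) for 8 lysosomal transcripts; axes start at 0. All 4 XBP1ΔDC points of Hgsnat, between 16.6 and 23.9, lie under every other pool, and those of Igf2r overlap control through replicate 3 at 64.3.

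Enzymes of glycogen and glycoprotein breakdown were lower in 4 of 5 cases in XBP1ΔDC, and 0 of 5 passed. Manba, which cleaves mannose from N-glycan remnants, was at 39.9, 50.7, 43.4 and 40.9 CPM in control, at 28.4, 39.6, 30.7 and 33.0 CPM in XBP1ΔDC, and at 35.4, 35.9 and 38.6 CPM in XBP1ΔDC IRE1truncDC pools. Every pool of both Cre-bearing groups was below every control pool, the nearest being 39.6 against 39.9 CPM, with log2 differences of -0.41 (SE 0.12, edgeR adjusted p = 0.235) and -0.25 (SE 0.13, edgeR adjusted p = 0.493). Man2b1, the α-mannosidase, was at 1363, 1325, 1174 and 1268 CPM in control, at 1057, 1138, 1131 and 1000.1 CPM in XBP1ΔDC, and at 1154, 878 and 1047 CPM in XBP1ΔDC IRE1truncDC pools. It too did not overlap control in either group, and its log2 difference in the double-deficient pools, -0.32 (SE 0.093, edgeR adjusted p = 0.205), had the smallest p of the list in that comparison. Gaa, the glucosidase that breaks down lysosomal glycogen, was at 65.6 to 70.0 CPM in control, 46.4 to 66.6 in XBP1ΔDC and 67.5 to 73.8 in XBP1ΔDC IRE1truncDC pools. The double-deficient pools were above all XBP1ΔDC pools (log2 difference 0.27, SE 0.11, edgeR adjusted p = 0.887). XBP1ΔDC was at -0.22 relative to control (SE 0.10, edgeR adjusted p = 0.646). Gaa, Naglu, Sgsh and Scpep1 lie on chromosome 11, as does Ern1. The part of DNA linked to the floxed Ern1 allele in their levels was not tested.

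In the 11 genes of lipid breakdown and export, 0 passed, 7 were lower in XBP1ΔDC and 8 in XBP1ΔDC IRE1truncDC. Asah1, the ceramidase with the tightest replicates of the enzymes, was at 514, 525, 515 and 496 CPM in control, 456, 468, 444 and 491 in XBP1ΔDC, and 421, 462 and 438 in XBP1ΔDC IRE1truncDC pools. Neither group overlapped control, with log2 differences of -0.14 (SE 0.059, edgeR adjusted p = 0.602) and -0.22 (SE 0.064, edgeR adjusted p = 0.218), a level 0.859 times that of control in the latter. Ppt2, a thioesterase related to Ppt1, was at 85.3 to 110.7 CPM in control, 76.8 to 84.8 in XBP1ΔDC and 65.4 to 86.7 in XBP1ΔDC IRE1truncDC pools. Its log2 differences were -0.31 (SE 0.10, edgeR adjusted p = 0.392) and -0.34 (SE 0.11, edgeR adjusted p = 0.277), and its counts are uncertain because its exons overlap Gm20460 on the same strand. Smpd1, the acid sphingomyelinase, had log2 differences of -0.34 and -0.38 with unadjusted p-values of 0.0412 and 0.0356 by edgeR. Pla2g15, a lysosomal phospholipase, was at 3.74 to 8.48 CPM in control, 5.84 to 8.34 in XBP1ΔDC and 3.01 to 6.48 in XBP1ΔDC IRE1truncDC pools. Its groups overlapped in each comparison, and the direct log2 difference was -0.73 (SE 0.32, edgeR adjusted p = 0.931). The cholesterol exporters Npc1 and Npc2 were within 0.15 of control on the log2 scale in both groups.

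Membrane proteins did not share a direction, with 3 of 8 lower in XBP1ΔDC and 4 of 8 lower in XBP1ΔDC IRE1truncDC, and 0 passed. Lamp1, a main glycoprotein of the lysosomal membrane, was at 350.0, 260.1, 323 and 267 CPM in control, at 423, 327, 229 and 274 CPM in XBP1ΔDC, and at 342, 323 and 558 CPM in XBP1ΔDC IRE1truncDC pools. All groups overlapped, and the log2 differences were 0.06 (SE 0.20, edgeR adjusted p = 0.986) and 0.44 (SE 0.22, edgeR adjusted p = 0.477). Its paralog Lamp2 was at 235 to 285 CPM in control, 224 to 266 in XBP1ΔDC and 202 to 226 in XBP1ΔDC IRE1truncDC pools. All 3 double-deficient pools were thus below control for Lamp2 (log2 difference -0.24, SE 0.090, edgeR adjusted p = 0.338), while for Lamp1 all 3 were above control replicates 2 and 4. Cd63, a tetraspanin of late endosomes, was at 137, 64.3, 144 and 84.7 CPM in control, at 231, 150.1, 93.0 and 144 CPM in XBP1ΔDC, and at 153, 131 and 285 CPM in XBP1ΔDC IRE1truncDC pools. The groups overlapped, with a log2 difference of 0.82 in the double-deficient pools (95% interval 0.08 to 1.56, edgeR adjusted p = 0.384), the largest of the 52 genes in that comparison.

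Cd63, Lamp1, Gnptab and Sort1 were highest in the same pools, XBP1ΔDC IRE1truncDC replicate 3 and XBP1ΔDC replicate 1, which also had the most mature DC marker RNA of their groups. All 6 of those markers are in the count table and none was at 0. The 5 tested were higher than control in both groups, and 0 passed by edgeR. At an unadjusted edgeR p under 0.05, 1 was higher in XBP1ΔDC, against 2.67% of all genes. In XBP1ΔDC IRE1truncDC 5 were, against 5.73% of all genes. With the marker level as a covariate, a setting chosen after seeing the data, the log2 difference of Cd63 in the double-deficient pools was -0.23 and that of Lamp1 -0.18, both of opposite sign to the values without it. Those of Gnptab and Sort1 were then -0.32 and -0.41, beside 0.45 and 0.24 without it. Because the tested markers were themselves higher than control in both groups, the covariate cannot separate the marker level from genotype. The part of the markers in these levels was not tested.

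Among the 5 genes of mannose 6-phosphate tagging and sorting, 0 passed and Igf2r had the largest difference. Igf2r (ENSMUSG00000023830, GRCm38 chr17:12682406-12769664, minus strand), the large mannose 6-phosphate receptor, was at 57.4, 78.01, 72.7 and 85.7 CPM in control, at 45.9, 47.9, 64.3 and 46.3 CPM in XBP1ΔDC, and at 51.6, 55.2 and 49.9 CPM in XBP1ΔDC IRE1truncDC pools. The double-deficient pools were all below control, and the XBP1ΔDC pools too except replicate 3, which lay above control replicate 1. The log2 differences were -0.52 (SE 0.14, edgeR adjusted p = 0.151) and -0.49 (SE 0.15, edgeR adjusted p = 0.228), and that between the Cre-bearing groups was 0.03 (95% interval -0.29 to 0.35). In XBP1ΔDC it passed by DESeq2 (adjusted p = 0.0269), by edgeR without XBP1ΔDC replicate 3 (adjusted p = 0.0407, log2 difference -0.65), and by edgeR with macrophage markers as a covariate (adjusted p = 0.0281). M6pr differed by 0.07 (95% interval -0.05 to 0.19) and -0.01 (-0.14 to 0.12), while Sort1 differed by 0.29 and 0.24 with wider 95% intervals, -0.21 to 0.78 and -0.29 to 0.77. Of the subunits of the tagging enzyme, Gnptab was at 0.34 and 0.45 (unadjusted p of 0.186 and 0.114 by edgeR). Its partner Gnptg was at 13.8 to 16.8 CPM in control, 10.1 to 15.4 in XBP1ΔDC and 11.8 to 16.7 in XBP1ΔDC IRE1truncDC pools, with log2 differences of -0.33 (SE 0.16, edgeR adjusted p = 0.681) and -0.15 (SE 0.17, edgeR adjusted p = 0.823). Exons of Gnptg overlap Unkl on the opposite strand.

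The regulators were close to control. Tfeb was at 41.8 to 61.3 CPM in control, 39.3 to 48.5 in XBP1ΔDC and 40.9 to 53.8 in XBP1ΔDC IRE1truncDC pools, with log2 differences of -0.13 (95% interval -0.41 to 0.16, edgeR adjusted p = 0.945) and -0.07 (95% interval -0.38 to 0.24, edgeR adjusted p = 0.915). Tfe3 was at 64.4 to 73.2, 64.7 to 74.8 and 64.0 to 84.6 CPM, with log2 differences of 0.02 (95% interval -0.18 to 0.23, edgeR adjusted p = 0.988) and 0.13 (95% interval -0.09 to 0.35, edgeR adjusted p = 0.724). These are mRNA levels, and both factors are known to be controlled by their place in the cell.

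The literature list of RIDD targets used by the study holds 5 of the lysosomal genes, Hgsnat, Igf2r, Tpp1, Gnptg and Lamp1. In XBP1ΔDC 4 of the 5 were lower than control, from -0.70 for Hgsnat to -0.33 for Gnptg, and Lamp1 was at 0.06. Of all tested genes, 48.8% were lower. Hgsnat alone passed by edgeR, against 0.895% of all genes, and Hgsnat and Igf2r passed by DESeq2, against 1.65%. In the direct comparison Hgsnat, Tpp1, Gnptg and Lamp1 were higher in XBP1ΔDC IRE1truncDC by 0.54, 0.35, 0.18 and 0.38, and Igf2r was at 0.03. By edgeR 0 of the 5 passed, against 0.0731% of all genes, and 1 had an unadjusted p under 0.05, against 5.29%. DESeq2 and limma voom called 0, against 0.539% and 0.0731%. In the alternative settings these differences were 0.44 to 0.65 for Hgsnat, 0.20 to 0.43 for Tpp1, -0.00239 to 0.30 for Gnptg and 0.0876 to 0.56 for Lamp1. Coding sequences (GENCODE vM21, GRCm38) were then searched for a hairpin like those of Xbp1, a loop of 7 bases written CNGCAGN closed by at least 4 paired bases. This search was chosen after the differences were seen. It found Dpp7 and Igf2r, 2 of 51 lysosomal genes (3.92%), beside 2.17% of 10469 genes; with at least 3 pairs there were 5 (9.8%, beside 8.19%), and with at least 5 pairs 0 (beside 0.535%). The sites are printed with those of Xbp1, the loop and the 4 base pairs next to it in capitals, as matches of sequence and not as shown cleavage sites.
Dpp7, chr2:25353366-25353395, minus strand, exon 10 of 13: ggcaagaCTGGCTGCAGACCAGcttctggg
Igf2r, chr17:12710703-12710732, minus strand, exon 21 of 48: ataagggACCCCAGCAGTGGGTttgtgttt
Xbp1, chr11:5524265-5524294, plus strand, exon 4 of 5: gtctgctGAGTCCGCAGCACTCagactatg
Xbp1, chr11:5524291-5524320, plus strand, exon 4 of 5: tatgtgcACCTCTGCAGCAGGTgcaggccc

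Both windows of Xbp1 lie in exon 4, outside the deleted exon, and hold 6 and 7 pairs by the same count. Of the 2 lysosomal genes, Dpp7 was higher by 0.98 and Igf2r by 0.03 in the direct comparison. Hgsnat, Tpp1, Gnptg and Lamp1 had no such letters with at least 4 pairs in the coding sequence searched. Of the other lysosomal genes below, only the amidase gene Naaa was looked up, also after the differences were seen, and it had a site with 4 pairs. The level of Naaa was lower than control in both Cre-bearing groups, as given below. Psap and Gm2a, which also passed in XBP1ΔDC, were not looked up. Gm2a is among the RIDD targets that the study names as decreased in XBP1-deficient cDC1s.

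The rest of the pathway was read from 5 lists of other lysosomal genes, also chosen with earlier results of these data known. Among 22 other hydrolases and activators, 20 were tested and 3 fell in XBP1ΔDC, against 0.858% of all tested genes that passed as lower. They were the sphingolipid activator precursor Psap, the GM2 activator Gm2a and the amidase Naaa. The median of the 20 was -0.16, with 16 of 20 lower, beside 48.8% of all genes. Psap was at 14233 to 16204 CPM in control and 11047 to 12405 in XBP1ΔDC (log2 difference -0.34, SE 0.055, edgeR adjusted p = 0.00832). Gm2a was at 3574 to 4130 and 2180 to 2548 CPM (log2 difference -0.71, SE 0.078, edgeR adjusted p = 5.08e-04), and Naaa at 3926 to 4356 and 2705 to 3052 CPM (log2 difference -0.51, SE 0.055, edgeR adjusted p = 4.95e-04). The groups did not overlap for any of the 3. In XBP1ΔDC IRE1truncDC, 1 of the 20 fell, against 0.292% of all genes that passed as lower. It was Naaa, at 3220 to 3415 CPM (log2 difference -0.33, SE 0.060, edgeR adjusted p = 0.0396). Psap was at 11851 to 12479 CPM (edgeR adjusted p = 0.0543) and Gm2a at 2682 to 3305 CPM (edgeR adjusted p = 0.161). DESeq2 called 4 and 3 of the 20 in these comparisons, against 1.65% and 1.82% of all genes, and limma voom 3 and 1, against 0.941% and 0.347%. In the direct comparison 0 of the 20 passed by edgeR and by limma voom, against 0.0731% of all genes. DESeq2 called 2, Gm2a and Plbd2, against 0.539%. By edgeR 4 were higher and 2 lower at an unadjusted p under 0.05, against 2.79% and 2.5% of all genes.

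The lists of genes that acidify the lysosome and deliver its cargo had medians near 0. In XBP1ΔDC, 0 of 16 tested subunits of the vacuolar ATPase passed by edgeR, 0 of 21 transporters and other membrane proteins, 0 of 14 genes of nutrient sensing and 0 of 14 sorting adaptors, with 0, 2, 2 and 2 at an unadjusted p under 0.05 and medians of 0.012, 0.022, -0.0071 and -0.013. DESeq2 and limma voom also called 0 in XBP1ΔDC. Of all tested genes, 7.62% had an unadjusted p under 0.05 by edgeR in XBP1ΔDC and 11.2% in XBP1ΔDC IRE1truncDC, where DESeq2 called 1.82%. In XBP1ΔDC IRE1truncDC, 0 genes of these 4 lists passed by edgeR and limma voom and 3 by DESeq2 (Atp6v1b2, Cd68 and Gga2), with 2 at an unadjusted p under 0.05 in each list and medians of 0.021, 0.0055, 0.045 and 0.056. The summed level of the ATPase subunits was 2686 to 2735 CPM in control, 2580 to 2771 in XBP1ΔDC and 2601 to 2795 in XBP1ΔDC IRE1truncDC pools.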

How the data were processed

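Per the labels and methods, the authors trimmed single-end SMART-seq v4 reads (Trimmomatic 0.39, FastQC 0.11.8), aligned them to mm10 with STAR 2.7.3a and counted reads per gene with HTSeqCount; the annotation is not given in the sources used here. The deposited counts are raw read counts per gene (24421 genes, 11 pools). The deposited log2 values are log2 CPM scaled by the authors with limma 3.42.2 (11118 genes, of which 167 did not pass the filter used here).

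Counts were fitted with edgeR 4.0.16 (TMM scaling, CPM above 1 in at least 4 pools, quasi-likelihood test, 3 groups in 1 fit) in R 4.3.3, with Benjamini-Hochberg adjustment over 10951 genes; a gene passed at an adjusted p under 0.05. SE is the log2 difference over the square root of F. Normalized CPM used TMM effective library sizes, and levels per kilobase used the merged exon length of GENCODE vM21. Pools of a group differed beyond sampling noise, and each is a separate pool of mice. The fits were tested on simulated data. Alternatives were DESeq2 1.42.0, limma 3.58.1, other scalings and filters, marker covariates, a replicate block, 2-group fits and leaving out each pool. Full statistics were planned for genes that passed, the 5 smallest p-values of each comparison, the 5 literature RIDD targets, Tfeb and Tfe3. The members and lists were chosen with earlier results of these data known. Spread is the SD of log2 CPM with a prior count of 2.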

Additional observations from a re-analysis of the deposited data

Results flagged for a closer look

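In groups of 4 pools, a pool was singled out where its gap to the nearest other pool exceeded Dixon's 95% critical share of the group's range, which chance does in about 1 of 20 groups. This was met in 2 of the 104 pairs of a lysosomal gene and a group of 4. Ctsh, a cysteine protease with aminopeptidase activity, was at 342.9 CPM in control replicate 1 and at 286.5 to 293.8 CPM in the other control pools. Igf2r was at 64.31 CPM in XBP1ΔDC replicate 3 and at 45.92 to 47.88 CPM in the other XBP1ΔDC pools. The same pool had the lowest Tpp1 (15.9 CPM) and the highest Ctsd (73.9 CPM) of its group.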

How the results depend on the processing

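The direction of Hgsnat in XBP1ΔDC held in all 25 alternatives (log2 -0.77 to -0.60, adjusted p 3.48e-04 to 0.109), and its call was lost in 11. Lysosomal genes that passed in XBP1ΔDC against control, 1 as reported, were 3 by DESeq2 (2 with the fold limit), 2 with the macrophage covariate, and 0 with limma on the deposited log2 values, library size only, the mature DC covariate (chosen after seeing the data) and only the 2 groups compared. Leaving out 1 pool gave 0 to 2, with 2 without XBP1ΔDC replicate 3. In XBP1ΔDC IRE1truncDC against XBP1ΔDC, DESeq2 gave 1, and leaving out 1 pool 0 to 1. Correlations of same-numbered deviations between groups were 0.0418 to 0.133, -0.0204 to 0.027 and -0.26 to -0.142. Those of differently numbered pools ran from -0.202 (control replicate 4 with XBP1ΔDC replicate 2) to 0.307 (XBP1ΔDC replicate 3 with XBP1ΔDC IRE1truncDC replicate 2). Control replicate 1 with XBP1ΔDC replicate 2 was at 0.249. Whether pools of different groups shared a batch was not tested. With the replicate block 0 passed in XBP1ΔDC. Leaving out 1 pool, the median was -0.101 to -0.00459 in XBP1ΔDC (nearest 0 without XBP1ΔDC replicate 4), -0.14 to -0.028 in XBP1ΔDC IRE1truncDC (nearest 0 without its replicate 2) and -0.058 to 0.035 in the direct comparison (lowest without XBP1ΔDC IRE1truncDC replicate 3); with the mature DC covariate it was -0.18 in XBP1ΔDC IRE1truncDC. Of all tested genes, 98, 39 and 8 passed in the 3 comparisons, against 181, 199 and 59 by DESeq2, 62, 20 and 4 by limma on the deposited values, and 59, 12 and 3 with the replicate block; with the mature DC covariate 6 passed in XBP1ΔDC IRE1truncDC, with the melanoma covariate 4 in the direct comparison, with only 2 groups 22 in XBP1ΔDC IRE1truncDC, and leaving out 1 pool gave as few as 60, 17 and 4.

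Signs turned in comparisons in which the gene did not pass. With the mature DC covariate, Lamp1 was -0.28 and -0.18 in the comparisons with control, and in XBP1ΔDC IRE1truncDC Hgsnat was 0.0592 and Tfeb 0.16. In the direct comparison Gnptg was -0.00239, Ppt2 0.0597 and Tfeb -0.033 with the melanoma covariate, and Igf2r -0.00324 with library size only. Leaving out 1 pool gave, in XBP1ΔDC, Lamp1 -0.12 to 0.19, Tfeb -0.19 to 0.00234 and Tfe3 -0.0142 to 0.0581; in XBP1ΔDC IRE1truncDC Tfeb -0.19 to 0.0555; and directly Igf2r -0.0177 to 0.16, Tfeb -0.0652 to 0.14, Naglu -0.085 to 0.00738, Man2b1 -0.17 to 0.0227 and Ppt2 -0.11 to 0.0808. The cause was not tested. For most genes the intervals covered less than the fold limit of 1.5 in either direction; smaller differences may have gone undetected. Counts of genes with overlapping exons are uncertain because the kit does not mark strand.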
